A study of Mus musculus with 6 samples.

Results

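The small leucine-rich proteoglycans are secreted matrix proteins with a core of tandem leucine-rich repeats, and the 8 genes described here are Dcn, Bgn, Aspn, Lum, Fmod, Prelp, Ogn and Podn. They were taken by gene symbol, all 8 were found among the 35275 genes of the count table, and all 8 had enough counts in the libraries to be tested. RNA came from whole kidneys of wild-type C57Bl/6 mice, by poly-A sequencing, 28 days after ischaemia-reperfusion injury, in which blood flow to the kidney is stopped and then restored. The severe group had 35 min of ischaemia (3 libraries, numbered 13, 14 and 15) and the mild group 20 min (3 libraries, numbered 7, 8 and 9). All 6 kidneys were therefore injured, uninjured kidneys were not analysed here, and the age and sex of the mice are not stated in the labels. Whether the kidneys of a group are from separate animals is not stated either, and a p-value here measures only the spread between these libraries, which may be technical in part.

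These proteins bind the surface of collagen fibrils and set their diameter and spacing, and several carry chondroitin, dermatan or keratan sulfate chains. They also bind growth factors such as TGF-beta, and soluble biglycan can act as a danger signal through Toll-like receptors. In kidney they are made mainly by interstitial fibroblasts, pericytes and vessel walls, and biglycan and decorin are known to accumulate in renal scars. The family is divided into classes by sequence: decorin, biglycan and asporin belong to class I, lumican, fibromodulin and prolargin (Prelp) to class II, osteoglycin to class III and podocan to class V.

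Each library held 15240491 to 17730967 gene counts. Scaling factors (TMM, a trimmed mean of ratios between libraries) lay between 0.974 and 1.17 in severe and between 0.943 and 0.945 in mild libraries. Within a group, chi-square per degree of freedom between libraries was 14.2 to 70.04 among severe and 3.67 to 5.34 among mild kidneys, so no 2 libraries agreed within sampling noise. Of the markers listed for proximal tubule, loop and distal tubule, podocytes and endothelium, all 12, 10, 8 and 10 had enough counts for a test. Markers of cartilage, tendon and cornea, tissues rich in these proteoglycans, were near the limit: 1 of 9 had enough counts, and Acan and Kera were at 0 in every library.

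Of the 8 genes, 6 had all their severe libraries above all their mild ones: Bgn, Dcn, Lum, Prelp, Ogn and Fmod. Aspn overlapped between the groups, and Podn overlapped with its lowest value in a severe kidney. Across all 14883 tested genes 17.9% stood above the mild range in this way and 16.1% below it, against 6 of 8 and 0 of 8 for the family. The family's median log2 fold change, severe over mild, was 1.10, against 0.00019 over all tested genes. The 8 genes were chosen with earlier results of these data known, so these contrasts may be set in part by that choice. With edgeR's quasi-likelihood test and Benjamini-Hochberg adjustment over all genes, 0 of the 8 passed an adjusted p of 0.05, as 0.0134% of all genes did. At an unadjusted p under 0.05 the same 6 genes were higher and 0 lower, where the shares over all genes were 15.8% higher and 7.89% lower. DESeq2 put 5 of the 8 past its adjusted threshold, against 6.98% of all genes, and limma-voom with quality weights 6, against 34.1% of all genes. These shares are for either direction. All of these members were higher in severe kidneys. So were 968 of the 1092 genes that DESeq2 called and 2736 of the 5080 that limma-voom called.

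**Figure D1:**
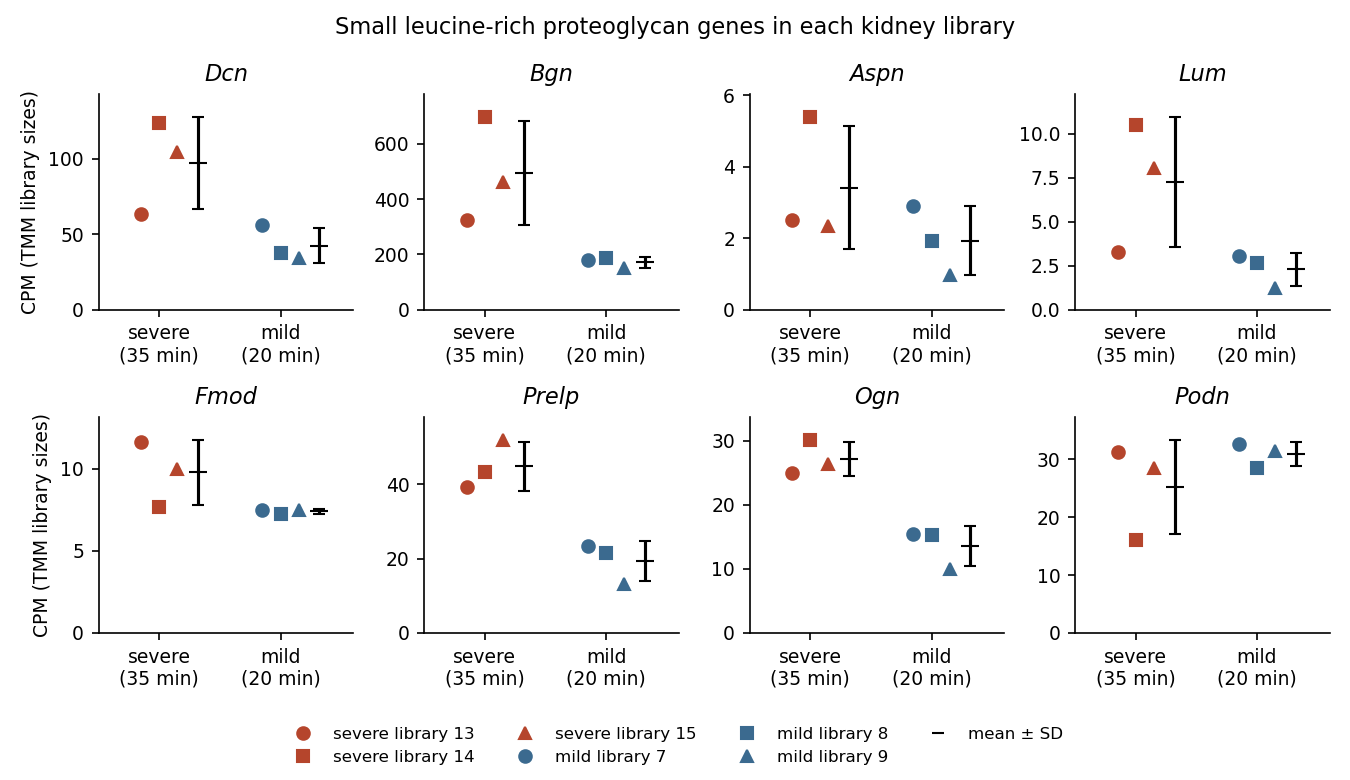
CPM (vertical axis, counts scaled to TMM library sizes) of the 8 genes in each severe library (left, red) and mild library (right, blue), 1 symbol per library, with mean ± SD (n = 3) beside each group. The groups are apart for Dcn, Bgn, Lum, Fmod, Prelp and Ogn and overlap for Aspn and Podn, and severe library 14 is highest for Dcn, Bgn, Aspn, Lum and Ogn but lowest of the severe libraries for Fmod and Podn.

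The first bases of 4 of these genes are given below, 250 bases before to 50 after a RefSeq transcription start (GRCm38.p6, the assembly called mm10), in lower case 5′ to 3′ on the gene's strand. Bgn, Prelp and Ogn are shown because they had the smallest p-values of the family, and Podn because it did not stand higher. Capitals mark matches, on either strand, to the TATA box as TATAAA, the CCAAT box, the GC box as GGGCGG, the AP-1 motif as TGANTCA, the letters CAGACA that hold the core bound by Smad proteins, and the TEAD motif as GGAATG. The stretches lie at chrX:73483351-73483650 on the plus strand for Bgn, chr1:133921352-133921651 on the minus strand for Prelp, chr13:49607765-49608064 on the plus strand for Ogn and chr4:108031905-108032204 on the minus strand for Podn.
Bgn: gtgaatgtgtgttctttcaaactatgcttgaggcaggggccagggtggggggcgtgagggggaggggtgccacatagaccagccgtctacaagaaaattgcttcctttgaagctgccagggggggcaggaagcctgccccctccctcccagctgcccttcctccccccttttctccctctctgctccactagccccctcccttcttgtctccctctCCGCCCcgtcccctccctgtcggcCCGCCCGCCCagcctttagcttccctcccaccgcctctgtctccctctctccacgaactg
Prelp: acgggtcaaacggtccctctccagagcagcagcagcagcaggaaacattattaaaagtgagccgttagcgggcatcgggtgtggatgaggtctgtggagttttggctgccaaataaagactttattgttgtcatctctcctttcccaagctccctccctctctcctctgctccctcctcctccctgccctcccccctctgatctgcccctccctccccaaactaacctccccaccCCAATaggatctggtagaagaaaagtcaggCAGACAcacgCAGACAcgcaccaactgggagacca
Ogn: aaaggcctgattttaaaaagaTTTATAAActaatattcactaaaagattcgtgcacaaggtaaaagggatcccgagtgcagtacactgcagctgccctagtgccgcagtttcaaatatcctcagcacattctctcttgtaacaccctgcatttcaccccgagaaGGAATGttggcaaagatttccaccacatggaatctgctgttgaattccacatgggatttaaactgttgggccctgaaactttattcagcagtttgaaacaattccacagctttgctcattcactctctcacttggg
Podn: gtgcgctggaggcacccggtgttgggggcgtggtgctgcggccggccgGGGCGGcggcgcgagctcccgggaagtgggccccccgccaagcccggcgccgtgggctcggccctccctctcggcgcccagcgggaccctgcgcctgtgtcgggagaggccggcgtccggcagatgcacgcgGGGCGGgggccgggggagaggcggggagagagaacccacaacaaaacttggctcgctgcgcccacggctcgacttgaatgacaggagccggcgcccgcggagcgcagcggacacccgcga

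The starts shown differ in base composition, with 63.7% G and C for Bgn, 55.3% for Prelp, 42.3% for Ogn and 77.0% for Podn, against a median of 52.7% over 32851 RefSeq promoters. GGGCGG was found at the starts of Bgn, where 2 of its 3 matches overlap, and of Podn, and in 35.7% of all promoters. TATAAA was found at the starts of Ogn, where its matches on the 2 strands overlap, and of Aspn, and in 13.6% of all. These matches began at -229 and -227 from the start for Ogn and at -207 and -178 for Aspn. Position was not used in finding matches. CCAAT was present for Prelp, Fmod and Aspn (37.4% of all), CAGACA for Prelp and a second start of Podn (21.04%), and GGAATG for Ogn (14.7%). The CCAAT of Fmod began 34 bases after its start. TGANTCA was in 0 of the 7 member promoters held, which belong to 6 of the genes, and in 7.81% of all. Bgn, which stood higher, and Podn, which did not, both carried GGGCGG, and a match of letters is not evidence of binding.

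Decorin (Dcn) carries a single chondroitin or dermatan sulfate chain, binds type I collagen and can sequester TGF-beta. Its level was 63.7, 124 and 104 CPM (read counts scaled to the TMM library size) in severe libraries 13, 14 and 15, against 55.8, 37.2 and 34.4 CPM in mild libraries 7, 8 and 9. Severe library 13 lay just above mild library 7, and the other severe kidneys were well above all 3 mild ones. The means were 97.3 ± 30.7 CPM in severe and 42.5 ± 11.6 CPM in mild kidneys (SD, n = 3 each). The fitted log2 fold change was 1.20 ± 0.27 (SE), with a 95% interval from 0.58 to 1.81 (edgeR, adjusted p = 0.0874).

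Biglycan (Bgn), the closest relative of decorin and the member that can act through TLR2 and TLR4, was the most abundant of the family. Its values were 324, 699 and 461 CPM in severe libraries 13, 14 and 15, against 179, 188 and 149 CPM in mild libraries 7, 8 and 9. Every severe kidney was well above the mild range, which was narrow. The log2 fold change was 1.52 ± 0.27 with an interval from 0.91 to 2.14 (edgeR, adjusted p = 0.0867), or 2.87 times the mild level. Its rank by p-value was 75 among all tested genes.

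Asporin (Aspn) has a stretch of aspartate residues at its start, binds collagen and TGF-beta and lacks the usual glycosaminoglycan chain of its class. It was the least abundant member, with 43, 96 and 38 reads in severe libraries 13, 14 and 15 and 42, 32 and 14 reads in mild libraries 7, 8 and 9. In scaled terms this was 2.50, 5.40 and 2.34 CPM in severe, against 2.89, 1.92 and 0.961 CPM in mild libraries. Only severe library 14 stood above the mild range. The log2 fold change of 0.83 ± 0.46 had an interval from -0.23 to 1.89 (edgeR, adjusted p = 0.289), and was 0.33 without severe library 14, 0.52 without mild library 9 and 1.24 without mild library 7. A difference of the size seen for decorin lies inside that interval.

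Lumican (Lum), a keratan sulfate proteoglycan best known for collagen spacing in the cornea, had the highest fitted fold change of the family. It had 3.26, 10.5 and 8.05 CPM in severe libraries 13, 14 and 15, against 3.03, 2.63 and 1.24 CPM in mild libraries 7, 8 and 9. Severe library 13 was close to the top of the mild range, and the other severe libraries were far above it. The log2 fold change was 1.66 ± 0.47, the widest error of the 8, with an interval from 0.57 to 2.74 (edgeR, adjusted p = 0.114). The gap rested on few reads, 56 in severe library 13 and 44 in each of mild libraries 7 and 8.

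Fibromodulin (Fmod), a relative of lumican that binds type I collagen and modulates its cross-linking, differed little. It had 11.6, 7.71 and 10.02 CPM in severe libraries 13, 14 and 15, against 7.51, 7.25 and 7.48 CPM in mild libraries 7, 8 and 9. Here severe library 14, highest for most of the family, was nearly level with the mild kidneys. The log2 fold change was 0.40 ± 0.17 with an interval from 0.0051 to 0.80 (edgeR, adjusted p = 0.207), and it was 0.55 without severe library 14 and 0.26 without severe library 13. Prolargin (Prelp), which links basement membranes to the connective tissue beneath, had 39.2, 43.4 and 51.95 CPM in severe libraries 13, 14 and 15, against 23.4, 21.4 and 13.2 CPM in mild libraries 7, 8 and 9. The groups were apart, and severe library 15, not 14, was the highest. Its log2 fold change was 1.21 ± 0.21 with an interval from 0.73 to 1.69 (edgeR, adjusted p = 0.0867), and its rank by p-value, 59, was the best of the family.

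Osteoglycin (Ogn), also called mimecan, is found in vessel walls and other connective tissue. It had 24.9, 30.1 and 26.4 CPM in severe libraries 13, 14 and 15, against 15.5, 15.3 and 9.95 CPM in mild libraries 7, 8 and 9. The severe libraries lay close together, with an SD of 0.14 on the log2 scale, against 0.36 in mild kidneys. The log2 fold change was 0.998 ± 0.173 with an interval from 0.60 to 1.40 (edgeR, adjusted p = 0.0867).

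Podocan (Podn) was first described in the scarred glomeruli of a mouse kidney disease model and restrains smooth muscle growth. It had 31.2, 16.04 and 28.5 CPM in severe libraries 13, 14 and 15, against 32.7, 28.6 and 31.5 CPM in mild libraries 7, 8 and 9. Severe library 13 was inside the mild range, severe library 15 just under it, and severe library 14 far below. Podn was the only member of the 8 with a negative log2 fold change, -0.29 ± 0.22, with an interval from -0.81 to 0.22 (edgeR, adjusted p = 0.418). The value was -0.0498 without severe library 14 and -0.47 without severe library 13.

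**Figure D2:**
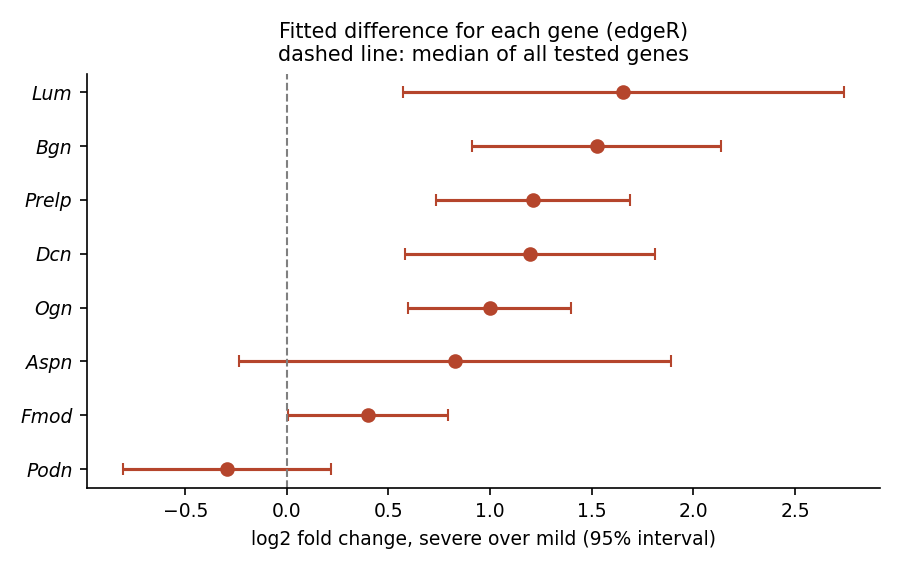
Log2 fold change, severe over mild, of each gene (points) with its 95% interval (bars), from edgeR fitted across all tested genes; the dashed line is the median of all tested genes. Lum and Bgn lie furthest to the right at 1.66 and 1.52, the Fmod interval starts at 0.0051, and the Aspn and Podn intervals cross 0.

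The adjusted p-values near 0.0867 depended on single libraries. The value 0.0867 is a tie made by the adjustment, shared by genes as far apart as ranks 12 and 332 by p-value. Equal adjusted values are therefore not equal evidence. Without severe library 13, which lay nearest to the mild kidneys for Dcn, Bgn, Lum, Prelp and Ogn, those 5 genes passed (edgeR, adjusted p from 0.00352 to 0.00813), where 3269 genes, or 21.5%, passed in all. Without severe library 14, Bgn and Ogn passed (edgeR, adjusted p = 0.0272 and 0.0271) among 501 genes, or 3.33%. Of all genes that passed, 2093 were higher in severe kidneys without severe library 13 and 361 without severe library 14. Without severe library 15, 0 of the 8 passed, where 1 of all 15071 tested genes did. Without any 1 mild library, 0 of the 8 and 0 of all tested genes passed.

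Levels of different genes were compared per length, as RPKM (CPM divided by the deposited gene length in kilobases). Bgn averaged 186 ± 71.1 RPKM in severe and 64.5 ± 7.53 RPKM in mild kidneys (SD, n = 3 each), and Dcn 51.6 ± 16.3 RPKM in severe and 22.5 ± 6.15 RPKM in mild kidneys. With the deposited lengths these were the top 2 levels of the family in every library. In severe kidneys Prelp followed at 12.4 ± 1.80 RPKM and Ogn at 10.7 ± 1.05 RPKM. Their ranges over the libraries overlapped, but within each severe library Prelp was above Ogn. In severe library 14 they were nearly level, at 12.02 RPKM for Prelp and 11.85 RPKM for Ogn. Podn followed at 6.94 ± 2.23 RPKM, below both in each severe library. In mild kidneys Podn came next after Dcn, at 8.51 ± 0.59 RPKM, above Prelp at 5.35 ± 1.504 RPKM and Ogn at 5.35 ± 1.24 RPKM in each library. The lowest levels in severe kidneys were 3.51 ± 1.78 RPKM for Lum, 3.14 ± 0.632 RPKM for Fmod and 1.45 ± 0.735 RPKM for Aspn. In mild kidneys Fmod stood at 2.38 ± 0.0467, Lum at 1.11 ± 0.455 and Aspn at 0.820 ± 0.412 RPKM. The order of Lum and Fmod in severe kidneys did not exceed their spread and turned with the longest GENCODE M21 transcript as the length. With that length the mean level of Dcn over all libraries was 14.9 in place of 37.04 RPKM. It then ranked second to Bgn in 5 libraries, and in mild library 9 it stood at 7.33 RPKM, below Podn at 8.66 RPKM.

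Summed over the 8 genes, the per-length level was 191, 366 and 269 RPKM in severe libraries 13, 14 and 15, against 123, 114 and 93.9 RPKM in mild libraries 7, 8 and 9. Bgn made up 63.7%, 71.6% and 64.3% of that sum in severe libraries 13, 14 and 15, against 54.4%, 61.6% and 59.7% in mild libraries 7, 8 and 9. Podn made up 4.50%, 1.21% and 2.91% in severe libraries 13, 14 and 15, against 7.30%, 6.87% and 9.23% in mild libraries 7, 8 and 9. The share of Bgn was thus above and the share of Podn below the mild range in all 3 severe kidneys, while the share of Dcn, 17.67% to 20.6% in severe and 17.3% to 23.96% in mild kidneys, overlapped.

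**Figure D3:**
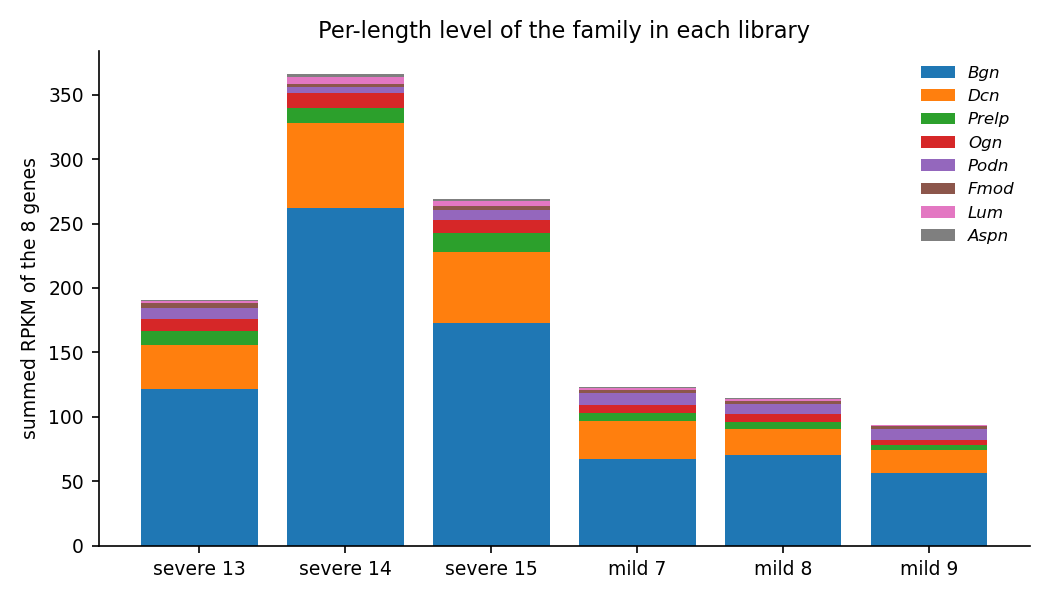
Summed per-length level (RPKM, vertical axis) of the 8 genes in each library, severe libraries left and mild ones right, with 1 colour per gene. The severe bars reach 191 to 366 RPKM and the mild bars 93.9 to 123 RPKM, and Bgn fills most of each bar.

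Proportions to decorin were compared within each library, as the log2 ratio of each other gene to Dcn, which does not depend on scaling. Podn was lower against Dcn in severe kidneys, with log2 ratios of -1.02, -2.94 and -1.87 in severe libraries 13, 14 and 15, against -0.77, -0.38 and -0.13 in mild libraries 7, 8 and 9. The groups did not overlap, and the means differed by -1.52, or by -1.02 without severe library 14 and -1.98 without severe library 13. Fmod against Dcn had a mean log2 ratio of -3.26 in severe and -2.47 in mild kidneys, a difference of -0.80, with severe library 13 inside the mild range. That difference was -0.44 without severe library 14 and -1.21 without severe library 13. Bgn differed by 0.29, Lum by 0.37, Prelp by 0.0681, Ogn by -0.16 and Aspn by -0.37, all with overlapping groups. Leaving out 1 library moved these as well. The difference for Bgn lay between 0.11 without mild library 7 and 0.43 without mild library 8, that for Lum between 0.13 without mild library 9 and 0.59 without mild library 8, and that for Aspn between -0.0795 without severe library 15 and -0.63 without mild library 9. In exact two-sided permutation tests p was 0.1 for Podn, the smallest that 3 against 3 libraries allow, and 0.2 to 0.9 for the other 6; adjusted over the 7 ratios, p lay between 0.467 and 0.9. No difference in proportion was therefore shown by a test, and these tests cannot show that the genes changed alike.

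**Figure D4:**
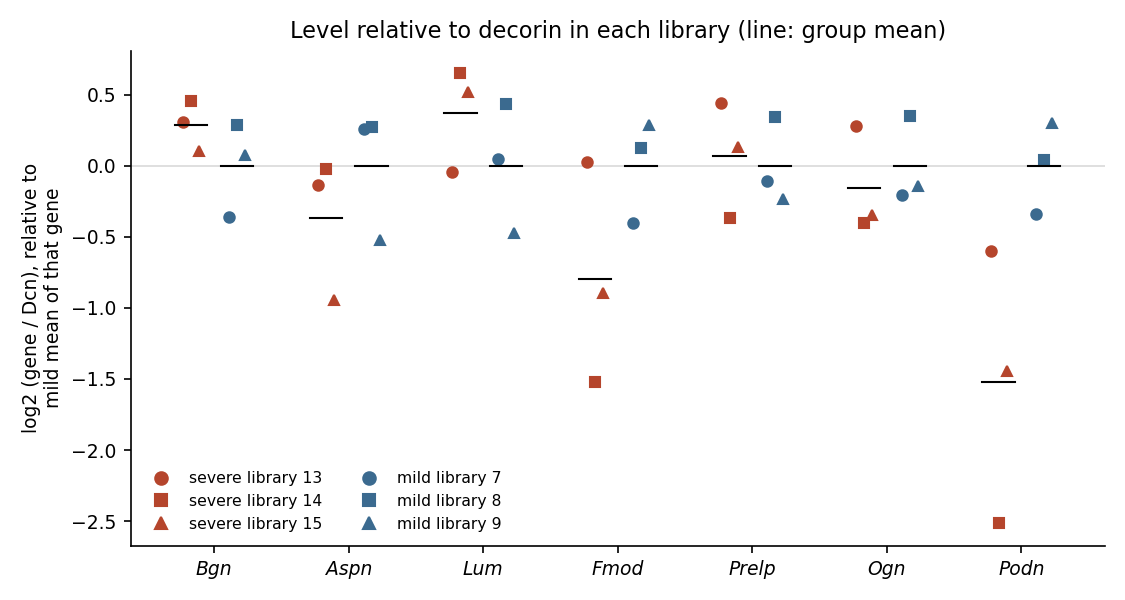
Log2 ratio of each gene to Dcn in each library (symbols as in the legend), set against the mild mean of that gene, with a line for each group mean. Podn lies lower in all 3 severe libraries than in the mild ones, by -1.52 on average, and the other genes overlap between the groups.

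Podn needs care in reading, since its deposited gene span (chr4:108014791-108096445, minus strand, mm10) overlaps that of Scp2, an abundant sterol carrier gene of tubule peroxisomes on the same strand. Scp2 spans chr4:108043839-108144998, so the overlap lies upstream of the Podn start shown above, at chr4:108031905-108032204. The stretch shown for Podn is therefore outside Scp2. In GENCODE M21 the exons of the 2 genes share 0 bases. Scp2 had 821, 496 and 674 CPM in severe libraries 13, 14 and 15, against 921, 858 and 846 CPM in mild libraries 7, 8 and 9. As for Podn, severe library 14 was the lowest. That library was also the lowest for every listed marker of proximal tubule and of loop and distal tubule. The likeness is therefore not particular to Podn and Scp2. The log2 fold change of Scp2 was -0.40 ± 0.20 (edgeR, adjusted p = 0.247), and the part of Scp2 reads in the Podn count was not tested. Of the other members, Prelp shares 350 of its exon bases with the antisense gene Gm15851, which had 0 counts in every library. Aspn shares 7 with Cenpp, which had 16 to 31 counts per library, and with the strand setting unknown such reads cannot be told apart.

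**Figure D5:**
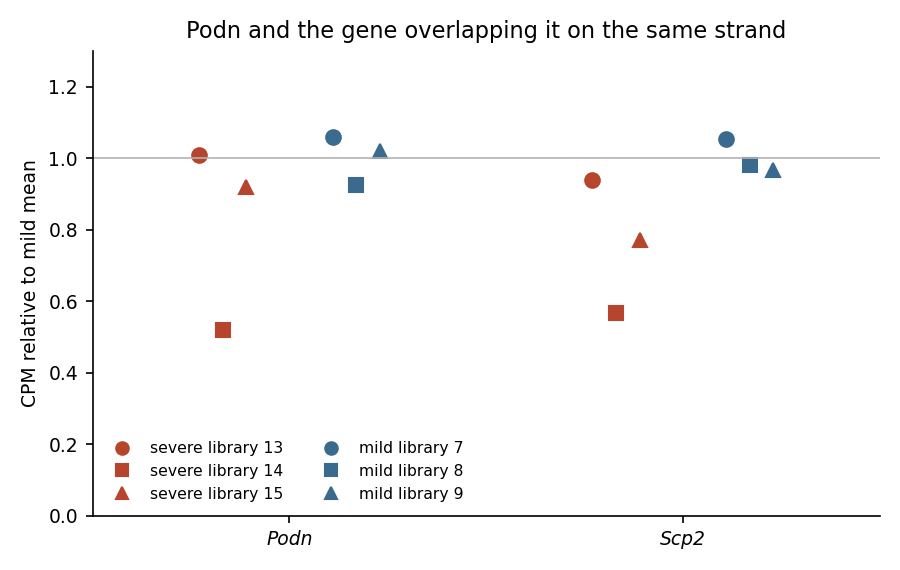
CPM of Podn and of Scp2, whose deposited span overlaps that of Podn on the same strand, relative to the mild mean of each gene, in severe (left, red) and mild (right, blue) libraries. Severe library 14 is the lowest point for both genes, at 16.04 CPM for Podn and 496 CPM for Scp2. It was also the lowest library for every listed tubule marker (not drawn).

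Several of the genes lie next to each other in the genome. Dcn (chr10:97479500-97518162) and Lum (chr10:97565501-97572703) are 47.3 kb apart on the plus strand of chromosome 10, and Kera, a cornea gene, and Epyc, which follow Lum, were at 0 counts in every library. On chromosome 13 the plus strand carries Ecm2, Aspn (49544443 to 49567557), Omd and Ogn (49608071 to 49624500) in that order, Aspn and Ogn being 40.5 kb apart. Ecm2, a related leucine-rich matrix gene, had 5.41, 10.6 and 7.44 CPM in severe libraries 13, 14 and 15, against 4.34, 4.49 and 3.64 CPM in mild libraries 7, 8 and 9 (log2 fold change 0.91 ± 0.26, edgeR, adjusted p = 0.114). Omd, the bone member osteomodulin, had 2.50, 1.52 and 2.27 CPM in severe libraries 13, 14 and 15, against 1.93, 1.497 and 1.24 CPM in mild libraries 7, 8 and 9. The groups overlapped for Omd and not for Ecm2. Fmod (134037254 to 134048277, plus strand) and Prelp (133910304 to 133921414, minus strand) lie on chromosome 1, and Optc, 2.31 kb from Prelp, had 9 counts in all severe and 14 in all mild libraries. Bgn lies on chromosome X from 73483602 to 73495933.

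Of the 10 other genes of the family that were listed, 6 had enough counts for a test and 0 passed over all genes. Podnl1, the relative of podocan, averaged 1.90 CPM in severe and 0.810 CPM in mild kidneys, with groups that did not overlap (log2 fold change 1.22 ± 0.25, edgeR, adjusted p = 0.0867). Its fitted fold change had the other sign from that of Podn, whose interval ran from -0.81 to 0.22. Podnl1 had only 97 reads in all severe and 37 in all mild libraries. A difference between Podnl1 and Podn was not tested. Chadl, a relative of chondroadherin, had -0.30 ± 0.16 (edgeR, adjusted p = 0.276), below the mild range in all 3 severe libraries. The other tested genes, Omd, Chad and Tsku, overlapped between the groups.

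The chains of these proteins are built by shared enzymes. All 27 listed genes for the linker and for chondroitin and dermatan sulfate were tested: 0 passed over all genes, 9 stood above and 1 below the mild range, and the median log2 fold change was 0.0953. Beside this and the counts below, 17.9% of all tested genes stood above the mild range and 16.1% below it. Chst14, which sulfates dermatan, stood at 6.75 CPM in severe and 3.07 CPM in mild kidneys (log2 fold change 1.13 ± 0.21), and Chst12, a chondroitin sulfotransferase, at 6.46 CPM in severe and 2.29 CPM in mild kidneys (1.48 ± 0.33). Chpf, a chondroitin polymerising factor, stood at 33.3 CPM in severe and 20.75 CPM in mild kidneys (0.68 ± 0.16). Of 7 tested genes for keratan sulfate 0 passed, 4 stood above and 2 below the mild range, with a median of 0.18, the galactosyltransferase B4galt1 at 0.24 ± 0.09, the sulfotransferase Chst1 at 0.37 ± 0.17 and the fucosyltransferase Fut8, below the mild range, at -0.24 ± 0.10. Of 7 tested large and other proteoglycan genes, 3 stood above the mild range with a median of 0.42. Srgn (serglycin, a proteoglycan of immune cell granules) had the smallest p of these, at 0.42 ± 0.10, and Spock2 stood at 1.02 ± 0.33. Vcan (versican) stood at 1.96 ± 0.63 and was uneven, with 2.38, 15.9 and 5.72 CPM in severe libraries 13, 14 and 15, against 1.59, 2.28 and 2.26 CPM in mild libraries 7, 8 and 9.

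Partners of the family were also listed. Of 15 genes for collagens, elastin and other matrix partners 14 stood above the mild range (median 1.74), with Col6a1 at 1.62 ± 0.27, Eln at 1.13 ± 0.18 and the cross-linking enzyme Lox at 2.63 ± 0.47. Of 12 tested genes for proteases that cut these proteins and their helpers, 9 stood above it (median 1.61), with Mmp12 at 2.38 ± 0.28, Mmp2 at 2.004 ± 0.370 and Mmp9 at 1.64 ± 0.34. Of 20 tested receptors and growth factors 8 stood above and 2 below it (median 0.85), with Tgfb3 at 1.45 ± 0.25, the endocytic receptor Lrp1 at 1.31 ± 0.23 and the Toll-like co-receptor Cd14 at 1.46 ± 0.29. The Toll-like receptors through which biglycan can act, Tlr2 (0.86 ± 0.35) and Tlr4 (0.85 ± 0.30), overlapped between the groups. The shares over all tested genes were 17.9% above the mild range and 16.1% below it. In each of these lists 0 genes passed over all genes tested (edgeR).

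Markers of cell types that the kidney holds were summed beside the family. Counts of markers outside the mild range stand beside 17.9% above and 16.1% below it over all tested genes. The summed level of 16 fibroblast and pericyte markers was 506 to 1026 CPM in severe and 317 to 384 CPM in mild kidneys; 13 stood above the mild range and 0 of the markers were at 0 counts. That of 13 macrophage markers was 627 to 1240 CPM in severe and 337 to 406 CPM in mild kidneys, with 11 above the range. That of 7 smooth muscle markers was 355 to 511 CPM in severe and 281 to 323 CPM in mild kidneys, with 4 above. Mylk was the largest part of the smooth muscle sum in every library. The smooth muscle markers Myh11 (log2 fold change -0.18 ± 0.13), Smtn and Lmod1 overlapped between the groups. The 12 proximal tubule markers summed to 15770 to 30827 CPM in severe and 35700 to 38152 CPM in mild kidneys, with 10 below the mild range. The 10 loop and distal tubule markers summed to 4641 to 7753 CPM in severe and 8276 to 8527 CPM in mild kidneys, with 3 below. Kap was the largest part of the proximal tubule sum, Umod of the loop and distal sum and Lyz2 of the macrophage sum, in every library. Of 8 T and B cell markers 5 had enough counts, and the sums over all 8, 6.63 to 12.97 CPM in severe and 4.82 to 9.54 CPM in mild kidneys, overlapped. Endothelial markers summed to 733 to 902 CPM in severe and 707 to 806 CPM in mild kidneys, and podocyte markers to 427 to 499 CPM in severe and 479 to 491 CPM in mild kidneys. In whole-kidney RNA a change in the number of cells of a type and a change in RNA per cell cannot be told apart, and the part of these markers in the result was not tested.

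Over the 6 libraries the genes whose log2 CPM most resembled the mean course of the family, among 13000 genes, were Gabra3 (Pearson r = 0.9996), Reck (0.998), Bace2 (0.998), Svep1 (0.997) and Pdgfrb (0.994). These values describe 6 points that share 2 groups and carry no test. Pdgfrb, the receptor that marks pericytes and fibroblasts, had 82.1, 148 and 117 CPM in severe libraries 13, 14 and 15, against 55.97, 50.3 and 32.9 CPM in mild libraries 7, 8 and 9. Set against Pdgfrb in the same library, Dcn reads stood at 0.776, 0.835 and 0.894 per Pdgfrb read in severe libraries 13, 14 and 15, against 0.996, 0.740 and 1.05 in mild libraries 7, 8 and 9. For Bgn the ratio was 3.95, 4.71 and 3.95 in severe libraries 13, 14 and 15, against 3.20, 3.73 and 4.54 in mild libraries 7, 8 and 9. Both overlapped between the groups. Pdgfrb was picked for its likeness to the family, so that overlap is largely set by the choice and supports nothing. For Podn it was 0.381, 0.108 and 0.244 in severe libraries 13, 14 and 15, against 0.585, 0.568 and 0.958 in mild libraries 7, 8 and 9, with no overlap. Set against Pdgfra, another fibroblast receptor, Dcn did not overlap, with 1.24, 0.819 and 1.34 reads per Pdgfra read in severe libraries 13, 14 and 15, against 1.96, 1.37 and 1.58 in mild libraries 7, 8 and 9. Bgn per Pdgfra read, 4.62 to 6.32 in severe and 6.29 to 6.91 in mild kidneys, overlapped, and Podn, 0.106 to 0.608 in severe and 1.05 to 1.45 in mild kidneys, did not. Whether Dcn overlapped thus depended on the receptor it was set against. Pdgfra stood at 51.4 to 151 CPM in severe and 21.8 to 28.5 CPM in mild kidneys. Both receptors were above the mild range in every severe library, and Podn was not. The lack of overlap for Podn is therefore largely set by the receptors and adds nothing to its own values.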

How the data were processed

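Poly-A RNA of 6 kidneys was sequenced, and the authors deposited un-normalized read counts for each gene, with gene lengths and coordinates. HTSeq 0.6.1, TopHat2 2.0.12, Bowtie2 2.2.3 and the build mm10 are named in the submitters' processing notes; how reads were assigned to overlapping genes or strands, and which annotation was used, is not given in the sources used here. Column names give the minutes of ischaemia, and their numbers match no sample title, so each column served as an unpaired replicate of its group.

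Genes were kept by filterByExpr of edgeR 4.0.16 (R 4.3.3), scaled by TMM and fitted with the robust quasi-likelihood F test across all genes. The threshold was a Benjamini-Hochberg adjusted p of 0.05. SE was taken as the size of the log2 fold change over the square root of F. Log2 CPM used a prior count of 2. DESeq2 1.42.0 and limma 3.58.1 were alternatives.

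The 8 genes and the lists were chosen with earlier results of these data known. Named were the 8 members, up to 3 genes per list with the smallest p and the 5 genes closest in course. Scp2, the neighbouring genes, the genes counted at 0, the other tested family genes, the overlapping smooth muscle markers and the ratios to Pdgfrb and Pdgfra were added after values were seen. Adgre1 was matched as Emr1. Promoters of Dcn and Lum were not used here. Counts per library limit Aspn and Lum most, and no interval here covers more than the spread between these libraries.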

Additional observations from a re-analysis of the deposited data

How the results depend on the processing

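No paired analysis was possible because the 2 groups share no replicate number. Past the threshold there were 2 genes in the data as reported, 1 with library totals as the scaling, 146 with no filter, 1092 with DESeq2, 5080 with limma-voom and quality weights, and 0 to 3269 when 1 library was left out. For the 8 genes the count was 0, with 2 (Bgn, Ogn) under no filter, 5 (Dcn, Bgn, Lum, Prelp, Ogn) with DESeq2, 6 (these and Fmod) with limma-voom and quality weights, and 0 to 5 with 1 library left out. The cause of these moves was not tested. RLE scaling, a minimum of 1 CPM in 3 libraries and non-robust dispersion left both counts as they were. Library totals moved the median of all genes by 0.17 on the log2 scale and that of the 8 genes to 1.28. The fold change of each of the 8 genes kept its sign under every alternative run. The log2 ratio to Dcn turned for Prelp and Ogn when 1 library was left out, with ranges from -0.12 to 0.29 and from -0.37 to 0.0197; Prelp stood at -0.0504 without mild library 9 and -0.12 without severe library 13, and Ogn at 0.0197 without mild library 8.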
